A study of Homo sapiens with 6 samples.

Results

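The genes followed here lie at the core of the integrated stress response: ATF4, ATF3, ATF5, DDIT3 (which encodes CHOP), TRIB3, NUPR1, ASNS, SESN2, CHAC1 and STC2. They were read in liver cancer cells given sorafenib. The members were taken by gene symbol from the annotation of the array, a rule that uses no measured value, although the list was drawn up with earlier results of these data known. These 10 genes, of 20046 genes with a probe carrying a single symbol, were read by 16 probes. The samples were labelled Huh7, an established human hepatocellular carcinoma line. They comprised 3 controls in DMSO, the solvent, and 3 samples given sorafenib, a multikinase inhibitor used against liver cancer, at a dose written as 3 mM in the labels, both for 24 h. Whether another unit was meant could not be settled, and nothing in the labels said that the replicates were separate cultures, so that a p-value here covers sample-to-sample spread that may be technical only. The study concerned the inhibition of protein disulfide isomerase together with sorafenib, and its design text named 4 liver cancer lines (SNU761, Huh7, Hep3B and HepG2).

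The integrated stress response starts when one of the kinases PERK, GCN2, PKR or HRI phosphorylates the initiation factor eIF2 alpha. General translation then falls, while the ATF4 message, which carries short upstream reading frames, is translated more. ATF4 binds C/EBP-ATF composite elements and switches on genes for amino acid supply and redox balance, and also CHOP, TRIB3 and CHAC1, which act later and can favour cell death. In liver cells PERK is the branch tied to unfolded protein in the endoplasmic reticulum.

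Each of the 6 samples came with a file of bead signals and with a column in a table of processed log2 values, and these were not the same measurements. Across all probes, the rank correlation between a sample's signals and its own value column was 0.848 to 0.863, and with the other 5 columns it was 0.846 to 0.863. A sample's own column ranked best for 3 of 6 samples. Within the signal arrays any pair of samples reached 0.925 to 0.942, and within the value table the range was 0.923 to 0.939. The former are called signal arrays below and the latter value-table columns, and each collection was tested on its own, and which of them came from Huh7 was not settled. Hepatocyte markers were measured in both, and all 11 with a named probe were above the detection level on every array. That level was a detection p-value under 0.01 on the signal arrays. The value table was read against 7.40, a level borrowed from the signal arrays (the mean over arrays of the lowest quantile-normalized log2 signal among detected probes), since no detection p-value was used for it. In DMSO, on a joint log2 scale described with the test of the difference, 2 of the 11 markers were higher in the value table by more than 1 (FGB, 14.52 against 7.50, and TTR, 12.80 against 8.79). Another 5 were higher on the signal arrays by more than 1, from APOA1 (15.10 against 13.93) to APOH (12.72 against 9.22), and 4 lay within 1, among them AFP (14.52 and 14.68) and TF (14.50 and 14.56). Median signal per array was 120.2 to 144.5, with 16476 to 17476 of 47323 probes detected at a detection p-value under 0.01, and 3 arrays a group limited the precision of every value.

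The promoter sequences of 3 members are printed. ASNS and STC2 showed the clearest contrast between the collections, and ASNS and CHAC1 carried a match to the core of the C/EBP-ATF element. ATF3 also carried a match, and its sequence is not printed. The core was written TGATGNAA and searched on both strands from 250 bases before to 50 bases after each gene start (RefSeq, GRCh38.p14). Capitals mark the match. The ASNS match lies 68 bases before the start, the CHAC1 match, on the other strand, lies 209 bases before it, and the STC2 window holds none.
ASNS chr7:97872409-97872558 minus strand: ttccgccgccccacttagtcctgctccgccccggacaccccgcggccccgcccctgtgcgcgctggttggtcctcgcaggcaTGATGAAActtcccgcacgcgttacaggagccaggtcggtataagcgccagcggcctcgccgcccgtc
CHAC1 chr15:40953232-40953381 plus strand: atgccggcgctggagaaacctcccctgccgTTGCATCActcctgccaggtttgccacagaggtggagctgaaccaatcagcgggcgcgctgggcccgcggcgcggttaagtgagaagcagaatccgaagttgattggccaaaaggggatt
STC2 chr5:173328415-173328564 minus strand: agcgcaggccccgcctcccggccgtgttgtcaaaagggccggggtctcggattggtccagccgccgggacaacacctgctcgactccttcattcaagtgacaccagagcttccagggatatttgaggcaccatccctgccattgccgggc
Among the 9 members with a promoter sequence, 3 held the motif (ATF3, with TGATGGAA 191 bases before the start, ASNS and CHAC1). Of all 35116 promoters of this length, 1270 (3.62%) held it, as did 1217 of 27305 genes. The cyclic AMP response element TGACGTCA was in none of the 9 and in 1.85% of all promoters. The member without a promoter sequence was NUPR1, which was therefore not searched. A match describes the letters in this window and says nothing of binding.

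NUPR1 and DDIT3 rose with sorafenib in both collections, while STC2 and ASNS rose strongly in one and did not pass the test in the other. On the signal arrays 5 of 9 tested member genes rose, 1 fell and 3 did not pass the test. Of the 9 members tested in the value table, 8 rose and ATF5, the gene that fell on the signal arrays, fell. Changes were tested with limma at a Benjamini-Hochberg adjusted p under 0.05 over the probes kept by a filter on dim ones, and each gene was represented by 1 probe. The fit called 31% of all 10523 genes on the signal arrays (16.8% higher and 14.2% lower) and 19.5% of 10595 genes in the value table (11.3% higher and 8.17% lower). All treated arrays lay above all controls for 5 members on the signal arrays, against 24.6% of all genes, and below them for 1, against 22.8%. For the value-table columns this held for 8 members above (21.7% of all genes) and 1 below (18.1%). With the replicate number as a block, 6 members rose (22.4% of all genes) and 1 fell (21.5%) on the signal arrays, and 8 rose (19.1%) and 1 fell (15.5%) in the value table. The members' median log2 change was 0.31 on the signal arrays and 0.91 in the value table, where the medians of all genes were 0.00 and 0.01. In bulk RNA, a change in every cell and a change in the share of cells expressing a gene cannot be told apart.

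**Figure D1:**
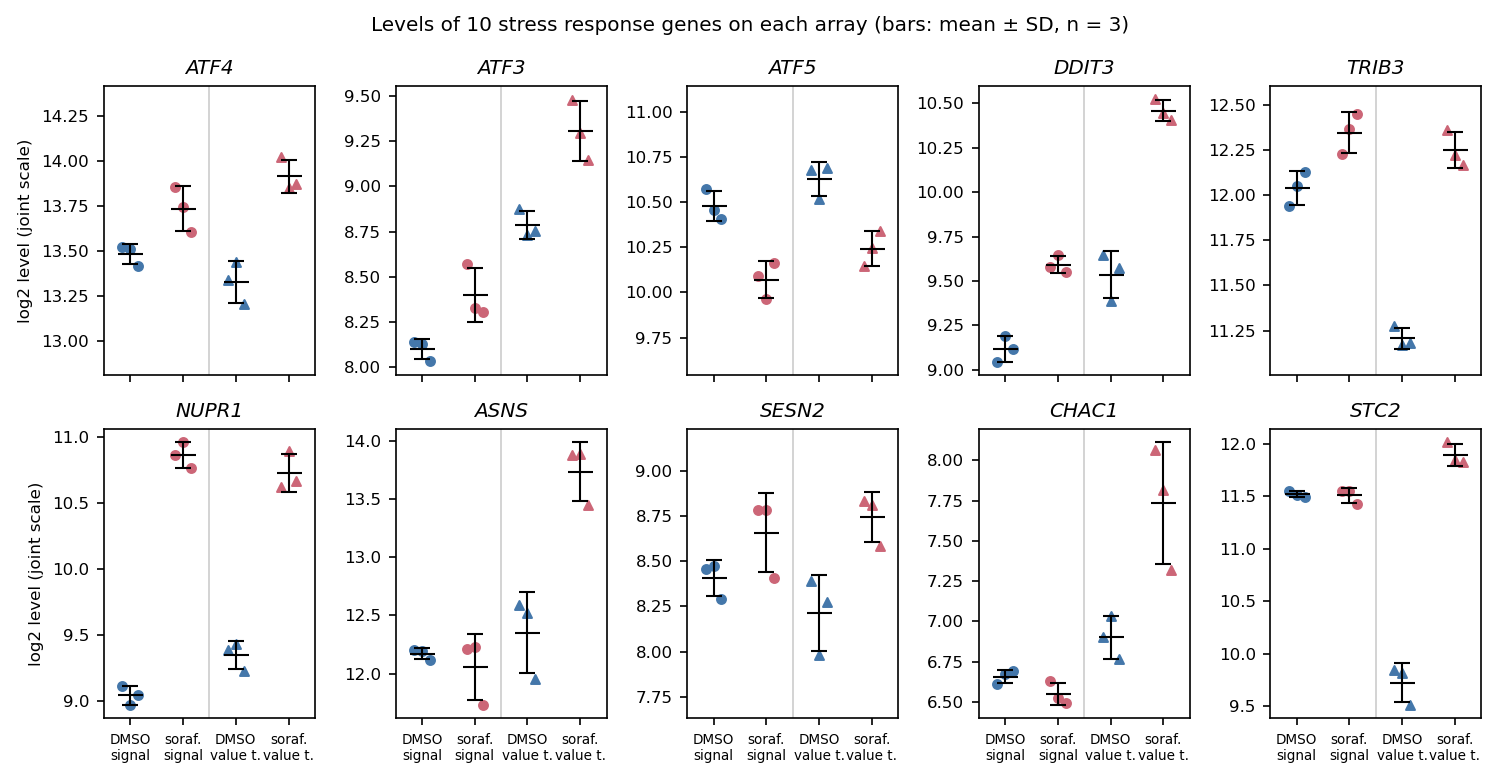
Log2 level of each member's representing probe (vertical axes, all 12 columns placed on a joint quantile-normalized scale) in the DMSO and sorafenib samples of the signal arrays (circles) and the value table (triangles); points are arrays and bars give the mean ± SD (n = 3). STC2 stayed near 11.5 in both groups of the signal arrays and went from 9.72 to 11.89 in the value table, whereas NUPR1 rose in both.

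ATF4, the transcription factor at the centre of the response, was measured by probe ILMN_1672128. On the signal arrays its log2 levels were 13.56, 13.55 and 13.46 in DMSO and 13.89, 13.79 and 13.65 with sorafenib. All 3 treated arrays lay above all 3 controls. The log2 change was 0.26 (95% CI 0.10 to 0.41, limma adjusted p = 0.0240), a 1.19-fold rise. The value-table levels were 13.30, 13.40 and 13.18 in DMSO against 13.98, 13.81 and 13.83, again without overlap, a log2 change of 0.58 (95% CI 0.42 to 0.75, limma adjusted p = 0.00182). The rise on the signal arrays was no longer called when arrays were scaled to the median (adjusted p = 0.269), when no intensity trend was fitted (0.0830), when the gene's probes were averaged (0.127), or without control 2, control 3, sorafenib 1 or sorafenib 2 (0.0562 to 0.0850). A second ATF4 probe, ILMN_2358457, gave 0.29 on the signal arrays (limma adjusted p = 0.0787) and 0.35 in the value table (0.0802), and passed in both with the replicate number as a block (0.0150 and 0.00466). The last, ILMN_1783394, was detected on 2 of 3 signal arrays in each group with a change of 0.01 (limma adjusted p = 0.978). In the value table that probe was above the level on 2 DMSO columns and no sorafenib column and did not pass the filter. Its change there without the filter was -0.19 (limma adjusted p = 0.345).

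ATF3, a stress-induced transcription factor of the same bZIP class, was read at a lower level by 1 of its 3 probes, ILMN_2374865. Its levels on the signal arrays were 7.54, 7.52 and 7.38 in DMSO and 8.18, 7.83 and 7.80 with sorafenib. The value-table columns held 8.83, 8.69 and 8.71 against 9.42, 9.24 and 9.09. Both collections separated the groups fully. The log2 change was 0.46 on the signal arrays (95% CI 0.15 to 0.77, limma adjusted p = 0.0341) and 0.51 in the value table (95% CI 0.29 to 0.73, limma adjusted p = 0.00998). The first of these calls was lost under median scaling (0.0755), with no filter on dim probes (0.0626) and without control 2, control 3, sorafenib 1 or sorafenib 2 (0.0601 to 0.120). The other ATF3 probes, ILMN_1661109 and ILMN_1791346, were above the detection level on no array.

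DDIT3 encodes CHOP, the factor that ATF4 induces when stress persists. Probe ILMN_1676984 read 8.81, 8.99 and 8.91 in DMSO and 9.46, 9.53 and 9.42 with sorafenib on the signal arrays. The value table held 9.59, 9.33 and 9.51 against 10.45, 10.37 and 10.34. In each collection the lowest treated array was above the highest control. DDIT3 rose 1.48-fold on the signal arrays (log2 change 0.57, 95% CI 0.37 to 0.77, limma adjusted p = 0.00166). Its rise in the other collection was 1.88-fold (log2 change 0.91, 95% CI 0.72 to 1.10, limma adjusted p = 0.000612).

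ATF5, a relative of ATF4 whose translation is controlled in the same manner and which takes part in the mitochondrial stress response, was the member that fell. Its levels (ILMN_1669113) were 10.56, 10.44 and 10.39 in DMSO and 10.03, 9.89 and 10.12 with sorafenib on the signal arrays. They were 10.61, 10.45 and 10.62 against 10.08, 10.18 and 10.27 in the value table, and the groups overlapped in neither. The log2 change was -0.45 (95% CI -0.64 to -0.25, limma adjusted p = 0.00471) on the signal arrays and -0.39 (95% CI -0.57 to -0.20, limma adjusted p = 0.0143) in the value table. Without sorafenib 1 of the value table that fall was -0.34 and was not called (0.0585).

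TRIB3, a pseudokinase that is induced by ATF4 and CHOP and feeds back on them, rose in both collections. The signal arrays gave 11.98, 12.10 and 12.18 in DMSO and 12.28, 12.42 and 12.50 with sorafenib (ILMN_1787815). The value table gave 11.20, 11.10 and 11.11 against 12.30, 12.16 and 12.10. The gap between the groups was narrow on the signal arrays and wide in the value table. The log2 changes were 0.31 (95% CI 0.14 to 0.48, limma adjusted p = 0.0158) and 1.05 (95% CI 0.89 to 1.21, limma adjusted p = 0.000303), or 1.24-fold and 2.07-fold. On the signal arrays the call was lost under median scaling (0.200), with no intensity trend (0.0539), and without control 2, sorafenib 2 or sorafenib 3 (0.0517 to 0.0570).

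NUPR1, a small stress-induced chromatin-associated protein and a target of ATF4, had the largest rise of the members on the signal arrays and ranked 10 of 10523 genes there. Probe ILMN_2404688 read 8.90, 8.72 and 8.82 in DMSO and 10.86, 10.96 and 10.76 with sorafenib. The value-table columns read 9.33, 9.37 and 9.18 against 10.55, 10.83 and 10.60. All treated arrays were more than a log2 unit above every control in both collections. The log2 change was 2.05 on the signal arrays (95% CI 1.85 to 2.24, limma adjusted p = 1.00e-06), a 4.14-fold rise. In the value table it was 1.37 (95% CI 1.15 to 1.58, limma adjusted p = 0.000303), a 2.58-fold rise and rank 6 of 10595. The second NUPR1 probe, ILMN_1810560, rose by 2.08 and 1.38. NUPR1 was the one member called higher by more than a log2 change of 1 on the signal arrays, where 1.63% of all genes were. Members called higher by more than that in the value table numbered 4 (STC2, ASNS, NUPR1 and TRIB3), where 0.264% of all genes were.

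ASNS, asparagine synthetase, is a standard ATF4 target of the amino acid response. Its levels on the signal arrays (ILMN_1796417) were 12.25, 12.25 and 12.17 in DMSO and 12.26, 12.28 and 11.76 with sorafenib. The groups overlapped, and sorafenib 3 lay below the other arrays. The log2 change was -0.12 (95% CI -0.39 to 0.15, limma adjusted p = 0.511). The value table held 12.53, 12.46 and 11.89 in DMSO and 13.84, 13.85 and 13.40 with sorafenib. There the groups were apart although number 3 was lowest in each, and ASNS rose 2.65-fold (log2 change 1.40, 95% CI 1.02 to 1.79, limma adjusted p = 0.00159), rank 5 of all genes. The second ASNS probe, ILMN_2398107, gave -0.09 on the signal arrays (limma adjusted p = 0.689) and 1.31 in the value table (0.00513).

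STC2, stanniocalcin 2, is a secreted glycoprotein induced by ATF4 under endoplasmic reticulum stress. Probe ILMN_1691884 read 11.59, 11.55 and 11.53 in DMSO and 11.59, 11.59 and 11.47 with sorafenib on the signal arrays. The groups overlapped, and the log2 change was -0.01 (95% CI -0.15 to 0.14, limma adjusted p = 0.950). The value-table columns read 9.78, 9.76 and 9.45 in DMSO and 11.95, 11.79 and 11.76 with sorafenib. The rise there was 4.50-fold (log2 change 2.17, 95% CI 1.94 to 2.40, limma adjusted p = 5.02e-05), the largest of the members and rank 2 of 10595 genes.

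SESN2, sestrin 2, which restrains mTORC1 when leucine is short, read 8.03, 8.05 and 7.79 in DMSO and 8.47, 8.47 and 7.95 with sorafenib on the signal arrays (ILMN_1751598). One treated array lay among the controls. The log2 change was 0.35 (95% CI -0.01 to 0.70, limma adjusted p = 0.137), which passed with array weights (0.0470), with the replicate block (0.0203) and without sorafenib 3 (0.0230). The value-table levels of 8.35, 7.96 and 8.25 against 8.79, 8.77 and 8.55 did not overlap, and SESN2 rose by 0.52 (95% CI 0.25 to 0.78, limma adjusted p = 0.0183). That call was lost without sorafenib 1 (0.0715) or sorafenib 2 (0.0648).

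CHAC1, which degrades glutathione, was not tested in the main fits, since its probe did not pass the filter in either collection. Its probe, ILMN_1739241, was detected on no signal array, with levels of 4.61 to 4.75. In the value table its levels were 6.91, 7.04 and 6.78 in DMSO and 8.04, 7.80 and 7.32 with sorafenib. Against the level of 7.40 the probe was above on none of the 3 DMSO columns and on 2 of 3 sorafenib columns. With the DMSO values set at that level, the sorafenib mean was 1.25-fold higher in the value table. This figure is no strict bound, since the sorafenib value of 7.32 lay below the level and was averaged as read. It rests on that borrowed level and has no test.

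Whether a member responded differently in the collections was tested as the value-table change minus the signal-array change, after all 12 columns were placed on a joint scale. On that scale 4 of 9 members had a larger change in the value table, 1 had a smaller one and 4 did not pass. Among all 11558 genes, 9.11% differed, with 4.31% of all called larger and 4.8% smaller. STC2 differed most, by 2.18 (95% CI 1.92 to 2.44, limma adjusted p = 1.70e-07), a 4.53-fold gap and rank 3 of all genes. Its DMSO level was 11.52 ± 0.03 on the signal arrays and 9.72 ± 0.19 in the value table (SD, n = 3), while the sorafenib levels were 11.51 ± 0.07 and 11.89 ± 0.10. The treated levels thus lay closer together than the control levels did.

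ASNS differed by 1.5 (95% CI 1.00 to 1.99, limma adjusted p = 0.00115), and its second probe by 1.39 (0.00739). Unlike STC2, its DMSO levels were close, at 12.17 and 12.35, and its sorafenib levels were apart, at 12.05 and 13.73. TRIB3 differed by 0.74 (95% CI 0.51 to 0.96, limma adjusted p = 0.000705). DDIT3 differed by 0.45 (95% CI 0.21 to 0.69, limma adjusted p = 0.0242). The DDIT3 call was lost with the collections normalized separately (0.34, 0.0917), with no filter (0.0554), and without control 2 or sorafenib 3 of the signal arrays or sorafenib 1 of the value table (0.0577 to 0.0685).

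NUPR1 went the other way, with a change smaller in the value table by 0.44 (difference -0.44, 95% CI -0.71 to -0.17, limma adjusted p = 0.0445). Its second probe gave -0.29 (95% CI -0.63 to 0.06, limma adjusted p = 0.320). The call was lost with no filter (0.0902) and in 9 of 12 fits that left out 1 array, with adjusted p from 0.0216 to 0.111 over the 12. With the collections normalized separately the difference was larger, at -0.68 (limma adjusted p = 0.00504). ATF4 differed by 0.33 (95% CI 0.11 to 0.56, limma adjusted p = 0.0725), which passed with the replicate block (0.0127). The other ATF4 probes gave 0.12 (ILMN_2358457, limma adjusted p = 0.701) and -0.20 (ILMN_1783394, 0.434). For ATF3 the difference was 0.22 (95% CI -0.07 to 0.52, limma adjusted p = 0.376) and for SESN2 0.28 (95% CI -0.10 to 0.65, 0.382). For ATF5 it was 0.02 (95% CI -0.22 to 0.26, limma adjusted p = 0.943). Normalized separately, the collections differed by 0.05 for ATF3 (limma adjusted p = 0.893), 0.17 for SESN2 (0.679) and 0.06 for ATF5 (0.794).

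**Figure D2:**
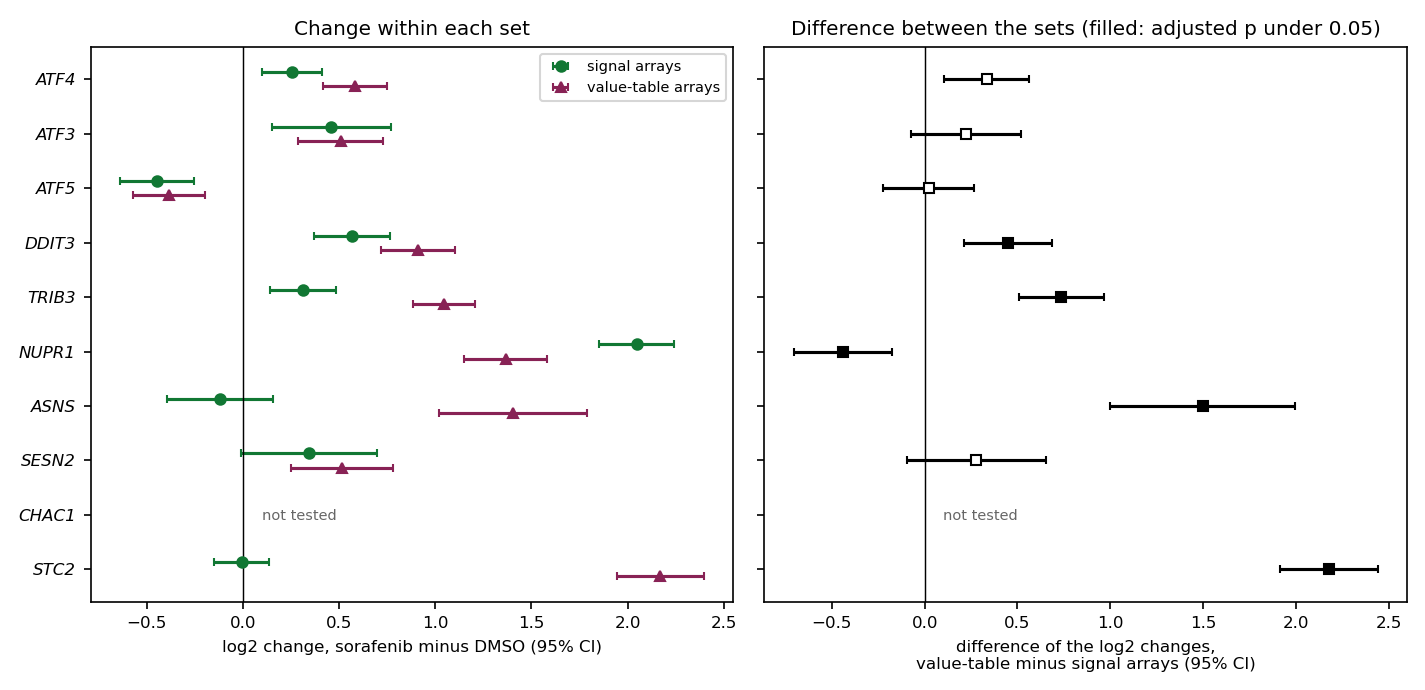
Left, log2 change with sorafenib of each member in each collection, from its own limma fit; right, value-table change minus signal-array change on the joint scale. Bars are 95% confidence intervals (n = 3 a group), filled points had an adjusted p under 0.05, and CHAC1 was not tested in these fits. STC2 and ASNS lay at or just below 0 on the signal arrays and at 2.17 and 1.40 in the value table.

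Other genes of the pathway were taken from 4 lists drawn up with earlier results of these data known, 59 genes in all. On the signal arrays 9 of 47 tested genes (19.1%) rose and 11 (23.4%) fell, where 16.8% and 14.2% of all genes did, with a median log2 change of -0.07. Of the 50 tested in the value table, 18 (36%) rose and 2 (4%) fell, where 11.3% and 8.17% of all genes did, with a median of 0.13. With the replicate block these counts were 10 and 14 on the signal arrays and 23 and 4 in the value table, where 22.4% and 21.5%, and 19.1% and 15.5%, of all genes were called. The same shares of all genes apply to the counts of each list that follows. The list nearest to the members in role was that of other ATF4 and CHOP targets. Of its 21 genes tested in each collection, 7 rose and 4 fell on the signal arrays, and 11 rose and 1 fell in the value table (15 and 3 with the replicate block). On the joint scale 7 of 22 changed more upward in the value table (EIF4EBP1, GDF15, NARS1, PSAT1, SLC7A11, TRIB1 and WARS1) and none more downward, where 4.31% and 4.8% of all genes did. With the replicate block these were 10 and 2, where the block raised the calls of a difference over all 19020 probes from 1475 to 3309. The share of all genes that differed with the block was not computed, for this list or for those that follow.

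Within those targets, GDF15, a secreted stress cytokine, had a log2 change of -1.62 on the signal arrays, a fall (limma adjusted p = 0.000863), and its value-table change was -0.35 (limma adjusted p = 0.115), which passed as a fall with the replicate block (0.000664). TRIB1, a paralog of TRIB3, had log2 changes of -1.05 (limma adjusted p = 2.25e-05) and -0.40 (0.0234), a fall in both. PSAT1, an enzyme of serine synthesis, rose by 0.79 in the value table (limma adjusted p = 0.000436), with a change of 0.08 on the signal arrays (0.438). VLDLR, a lipoprotein receptor induced by ATF4, rose in both, by 0.96 (limma adjusted p = 0.00185) and 1.10 (0.000436). KLHL24 also rose in both, by 0.98 (limma adjusted p = 0.00573) and 1.02 (0.00133), although its probe was detected on only 2 of 3 DMSO signal arrays. SLC7A11, the cystine transporter subunit, was chosen for mention after its values were seen: it fell on the signal arrays (-0.77, limma adjusted p = 0.0245) and rose in the value table (0.54, 0.00416).

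The upstream list held the eIF2 alpha kinases, subunits and phosphatase factors. On the signal arrays 1 of its 15 tested genes rose and 5 fell (2 and 6 with the replicate block), among them EIF2S1, which encodes eIF2 alpha itself (-0.35, limma adjusted p = 0.0277), EIF2B3 (-0.45, 0.0343) and PPP1R15A, which encodes the GADD34 phosphatase subunit (-0.42, 0.0164). Of the 17 tested in the value table, 3 rose and 1 fell. Neither EIF2S1 (-0.13, limma adjusted p = 0.438) nor PPP1R15A (0.08, 0.681) passed there. EIF2AK1, the kinase HRI, rose by 0.29 on the signal arrays (limma adjusted p = 0.00368) and by 0.33 in the value table (0.00870). OMA1, the mitochondrial protease upstream of HRI, rose by 0.35 in the value table (limma adjusted p = 0.0154), where EIF2B3 fell (-0.35, 0.0207). None of its 17 genes differed between the collections in the joint fit, and 3 did with the replicate block (EIF2AK3, PPP1R15A and OMA1, named after their values were seen), each with a change further upward in the value table.

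Among 9 other bZIP factors and partners, 1 rose and 2 fell on the signal arrays, and 3 rose and none fell in the value table. With the replicate block 1 rose and 3 fell, and 4 rose and none fell. On the joint scale 2 changed more upward in the value table and 1 more downward (5 and 1 with the block). The upward 2 were CEBPG, by 0.76 (limma adjusted p = 0.000120), and XBP1, by 0.61 (0.00422). CEBPA, a hepatocyte factor, rose by 0.74 on the signal arrays (limma adjusted p = 0.00125) and had a change of -0.04 in the value table (0.748), a difference of -0.79 (0.00318). XBP1, the factor of the IRE1 branch of the unfolded protein response, fell on the signal arrays (-0.69, limma adjusted p = 0.000344) and had a change of -0.07 in the value table (0.558). NFE2L2, the NRF2 factor of the oxidative stress response, also fell on the signal arrays (-0.32, limma adjusted p = 0.00277). Its change in the value table was -0.02 (limma adjusted p = 0.863). CEBPG, an obligate partner of ATF4 at many amino acid genes, rose by 0.57 in the value table (limma adjusted p = 0.000613) and had a change of -0.20 on the signal arrays (0.0583), which passed as a fall with the replicate block (0.0192). CEBPB and JDP2 rose in the value table by 0.23 (limma adjusted p = 0.0473) and 0.30 (0.0436). Of the paralogs, BATF rose in the value table by 0.36 (limma adjusted p = 0.0229), and neither of the 2 genes tested on the signal arrays passed.

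**Figure D3:**
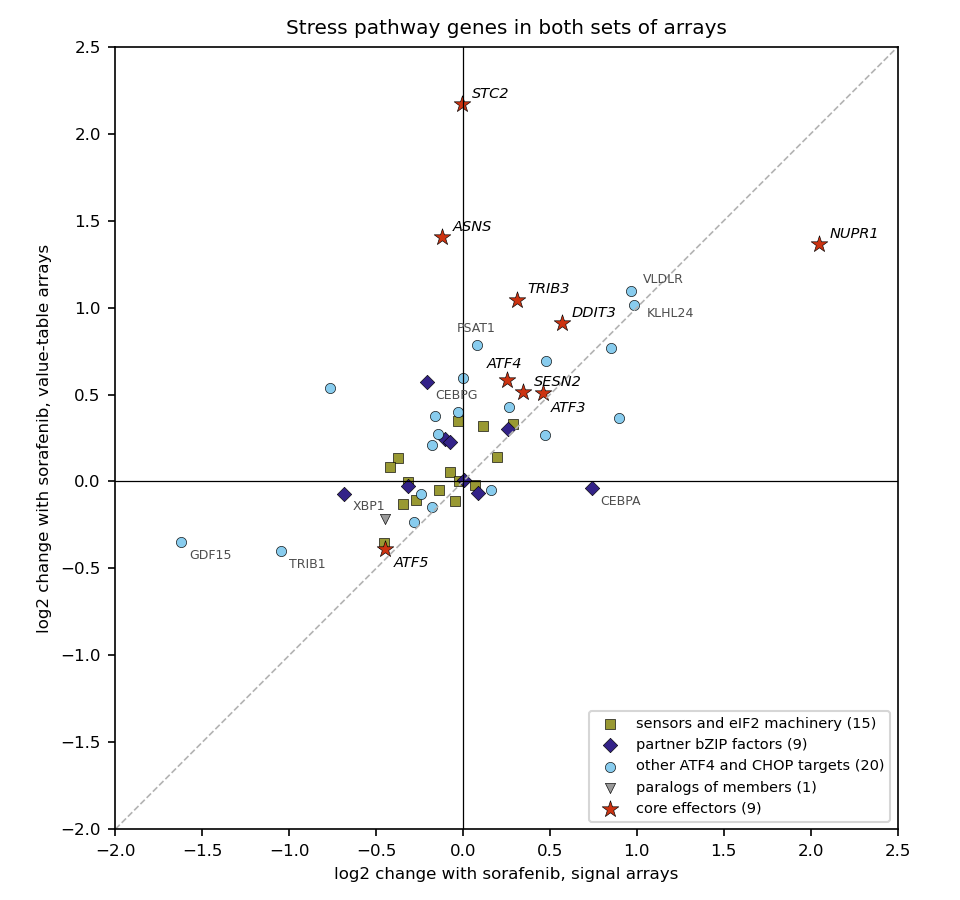
Log2 change with sorafenib on the signal arrays (horizontal axis) against that in the value table (vertical axis) for each pathway gene tested in both collections: 9 members, 20 other targets, 15 upstream genes, 9 bZIP factors and 1 paralog; the dashed line marks equal change. Points above it changed more upward in the value table, with STC2 and ASNS farthest above among the members and NUPR1 below.

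Both collections were set side by side gene by gene over 9560 genes tested in each. Of these, 532 rose in both and 404 fell in both, while 24 rose on the signal arrays and fell in the value table and 25 did the reverse. The members gave 5 genes that rose in both (ATF3, ATF4, DDIT3, TRIB3 and NUPR1), 1 that fell in both (ATF5), and 3 that rose in the value table alone by these tests (ASNS, SESN2 and STC2). Of the latter, ASNS and STC2 also passed the test of the difference, and SESN2 did not. With the replicate block SESN2 rose on the signal arrays too (limma adjusted p = 0.0203), so that it rose in both collections by the blocked fits.

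Genes with a profile over the 12 columns most like that of a member were ranked among 11558 genes by the root mean square difference on the joint scale, each gene being centred within each collection. For NUPR1 the nearest were ALDH3B1 (0.237), COL16A1 (0.301) and ACSS2 (0.303). For ATF4 they were AARS1 (0.0642), RHOT1 (0.0712) and SNHG32 (0.0738), and for DDIT3 AKNA (0.0644), RAB3IL1 (0.0709) and PHGDH (0.0976). The distances are in log2 units, and the columns of a collection share a normalization.

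Markers of other cell types were read on the same arrays. Of 6 immune markers, CD14, CD68 and LYZ were above the detection level on all arrays of both collections and PTPRC, CD3E and MS4A1 on none. Their summed log2 level was 13.58 to 13.81 in DMSO and 12.89 to 13.04 with sorafenib on the signal arrays, and 13.56 to 13.73 against 12.54 to 13.07 in the value table. The sum was taken on linear levels, and LYZ alone averaged 13.48 in DMSO on the signal arrays and 13.36 in the value table. LYZ fell in both (-0.82, limma adjusted p = 0.000123, and -0.99, 0.00507). CD14 (-0.23, limma adjusted p = 0.113, and 0.17, 0.270) and CD68 (0.01, 0.946, and -0.06, 0.655) passed in neither. Of the stromal markers, 5 of 6 were detected on no signal array and PDGFRB on the 3 DMSO arrays and no sorafenib array, while LUM was above the level on all value-table columns. Their summed level was 7.96 to 8.15 in DMSO and 7.78 to 7.81 with sorafenib on the signal arrays, and 10.77 to 11.00 against 10.93 to 11.06 in the value table. Of the 4 endothelial markers none was detected on a signal array, and PECAM1 was above the level on all 6 value-table columns, where the list summed to 9.93 to 10.30 in DMSO and 9.71 to 9.93 with sorafenib. The part of these markers in the members' changes was not tested.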

How the data were processed

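RNA of 6 samples was hybridised to Illumina HT-12 beadchips. The authors deposited, per sample, probe intensity values without normalization and a detection p-value per probe, per the file headers. They also deposited a table of normalized values, taken as log2 from its range of 6.08 to 15.85; its 6 columns share one distribution, and how it was centred and normalized is not given in the sources used here. Symbols came from GEO's platform annotation: 30113 probes had 1 symbol, 8 several and 17202 none.

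Intensities were background-corrected, quantile-normalized and put on a log2 scale with neqc in limma 3.58.1 (R 4.3.3, offset 16). Probes were kept if detected at p under 0.01 on at least 3 of 6 arrays (17115 of 47323), or, in the value table, if above log2 7.40 on at least 3 columns (17122). That level is the mean over the signal arrays of the lowest level among detected probes after quantile normalization without background correction, and is borrowed from them. Each set was fitted with lmFit and eBayes with an intensity trend, and p-values were adjusted by Benjamini-Hochberg across the kept probes and read against 0.05. For the test of the difference, log2 signals without background correction and the deposited log2 values were quantile-normalized together (12 columns). A gene with several kept probes was represented by the brightest on average. Detection, not counting error, sets the floor of these arrays: it lay at log2 5.99 to 6.19 on the signal arrays. The 1.25-fold figure for CHAC1 in the value table was computed with its DMSO values set at 7.40 and its sorafenib values as read.

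Same-numbered samples deviated together (correlations 0.321 to 0.384 on the signal arrays and 0.317 to 0.666 in the value table), and each sample correlated best with its own number in 6 of 6 cases in each set, so that the numbers were taken to pair the samples; the labels do not say what a number stands for. The blocked value is given where it changes the call of a member, and for some of the other named genes. Other named genes changed call with the block without the blocked value being printed above. Among them were falls of PECAM1 in the value table (limma adjusted p = 0.108, 0.00265 with the block) and of EIF2AK3 on the signal arrays (0.0681, 0.0172 with the block).

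The members and the pathway lists were chosen with earlier results of these data known. From each list, the 3 genes with the largest absolute change among those past the threshold in a set were named, besides every member. Alternatives were median scaling, no filter, other filters, no trend, array weights, averaged probes, the replicate block and leaving out each array.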

Additional observations from a re-analysis of the deposited data

Results flagged for a closer look

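The following members had a sorafenib response that differed between the collections by the interaction test of limma (value-table change minus signal-array change, log2, 3 arrays a group). The differences were 2.18 for STC2, 1.5 for ASNS, 0.74 for TRIB3, 0.45 for DDIT3 and -0.44 for NUPR1 (-0.68 with the collections normalized separately). For STC2 the collections differed mainly in the DMSO level, and for ASNS mainly in the sorafenib level. In DMSO on the joint scale, 2 of 11 hepatocyte markers were more than 1 log2 unit higher in the value table, 5 were more than 1 higher on the signal arrays and 4 lay within 1, and the part of the cells' identity in these differences was not tested. Collection, array run and normalization cannot be told apart.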

How the results depend on the processing

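STC2, ASNS and TRIB3 kept their difference between the collections in all 5 other settings and in all 12 fits that left out 1 array. The value-table calls of all 9 tested members held in the 8 other settings run. On the signal arrays 4588 probes were called, 2627 with median scaling, where 3 members were called rather than 6. With the value table in place of the signals on the same probes, 2582 probes were called, and ASNS (1.40) and STC2 (2.17) were called as rises. Neither was called on the signal arrays (-0.12 and -0.01). That setting exchanged the collection rather than the processing. Medians of the value-table columns are equal, so that median scaling changed nothing there. The replicate block raised the calls from 4588 to 6747 on the signal arrays, from 3038 to 5456 in the value table and from 1475 to 3309 for the difference, and changed no other member's call than those of SESN2 on the signal arrays and ATF4 for the difference. With 1 array left out, the calls ranged from 2938 to 4337 probes and 3 to 6 members on the signal arrays, from 1560 to 2494 probes and 7 to 9 members in the value table, and from 976 to 1500 probes and 3 to 5 members for the difference. The low member count of 3 on the signal arrays came without control 2 or sorafenib 2, and that for the difference without control 2 of the signal arrays or sorafenib 1 of the value table. The causes of these shifts were not tested, and each such fit also had 1 array fewer. The slide as a block was not run. CHAC1 was detected on no signal array and lay above the borrowed level on only 2 value-table columns, so that its reading is limited by the detection floor.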
